A study of Mus musculus with 2 samples.

Results

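Collagens other than type IV are the fibril-forming, fibril-associated, beaded-filament, network-forming, transmembrane and multiplexin members of the collagen family. They were followed here in glomerular RNA from mice with pristane-induced lupus nephritis. A gene was taken as a member when the RefSeq accession of its probe led to a symbol of the form Col, number, a, number, and the type IV chains Col4a1 to Col4a6 were left out. The arrays held 54 probes for 37 such genes, among 20658 named genes in all. The table of mouse genes has 1 more collagen gene of this kind, Col12a1, to which no probe was matched.

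RNA was measured on Agilent one-colour arrays, with 1 array for wild type mice (WT) and 1 for mice carrying a podocyte-specific deletion of Sirpa (Sirpa-/-), the gene of the inhibitory receptor SIRPα. Every mouse was male, was 8 months old and had received 0.5 ml of pristane, an oil that induces lupus-like autoimmunity, by 1 injection into the peritoneum 4 months earlier, so both groups carry the disease model. No source used here names the Cre line or other driver that deleted Sirpa, or says how many animals stand behind an array. The tissue label is glomeruli, although the study's design text speaks of isolated podocytes. With 1 array per group there was no replicate, so no test between the groups was made, and each difference is a difference between these 2 arrays.

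Collagens share a triple helix wound from chains in which glycine recurs at regular intervals. Type I and III collagens form the striated fibrils of interstitial connective tissue and of scars, types V and XI sit inside such fibrils and set their width, and the fibril-associated collagens decorate their surface. In the glomerulus the main collagen is the type IV network of the basement membrane, while type VI filaments lie in the mesangial matrix, type XVIII collagen is a basement membrane component and type VIII collagen is made by vascular and mesangial cells. Fibrillar collagen in the glomerulus is known mainly from sclerosis.

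The only Sirpa probe gave a processed signal of 11624 for WT against 17316 on the array labelled Sirpa-/-, a log2 difference of 0.64 after scaling, which goes against the label. Where the probe lies relative to the deletion is not known, and other cells of the glomerulus keep Sirpa, so the probe is no firm check of the label. Every direction is for that reason given by the array's label. The podocyte marker nephrin (Nphs1) was well above background on both arrays, with processed signals (WT, then Sirpa-/-) of 34988 and 51876. Of 39423 gene probes, 85.3% were well above background for WT and 86.7% on the second array.

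A gene counted as measured when more than 50% of the spots of a probe were well above background on both arrays. Of the 37 collagen genes 31 were measured, 22 of them by a single measured probe. Paired signals are given with WT first, and a difference is the log2 signal labelled Sirpa-/- minus that of WT, each array scaled to its 75th percentile. The error given with a difference is the one the scanner software estimates for the spots, and it covers neither animals nor labelling. Processed signals of different probes are not comparable with each other, so levels are compared only between the arrays. Single spots of probes spotted repeatedly gave differences with a median SD of 0.06 for 261 probes with a signal of at least 100 and 0.27 for 97 dimmer ones. Of the 31 measured collagen genes, 18 had a signal under 100 on at least 1 array.

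The measured collagens as a whole were centred at 0, with a median log2 difference of 0.02 over 31 genes against 0.00 over all 18239 measured genes, and 17 of them lay above 0. The array labelled Sirpa-/- had 1 collagen gene at least 2-fold higher, Col6a5, and 1 at least 2-fold lower, Col11a1. Over all measured genes 1.56% passed 2-fold upward and 1.67% downward, while the 3.23% of collagens in each direction is 1 gene each. The higher genes made up 48.4% of all genes past 2-fold, or 58.9% with normexp, a background model that separates spot signal from local background. At 1.5-fold, 2 collagens were higher (Col1a1 and Col6a5, 6.45% against 4.35% of all measured genes) and 4 lower (Col8a1, Col11a1, Col15a1 and Col27a1, 12.9% against 5.27%). That is 19.4% of the collagens past 1.5-fold, beside 9.62% of all measured genes. With normexp Col1a1 (0.49), Col15a1 and Col27a1 were no longer past 1.5-fold, which left 3 collagens (9.68%) beside 4.18% of all measured genes. Normexp also moved the median of all genes to 0.07, with 65.4% of them above 0. Differences larger than 2 software errors were found for 10 of the 31 collagens, 32.3% against 14.9% of all measured genes.

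**Figure D1:**
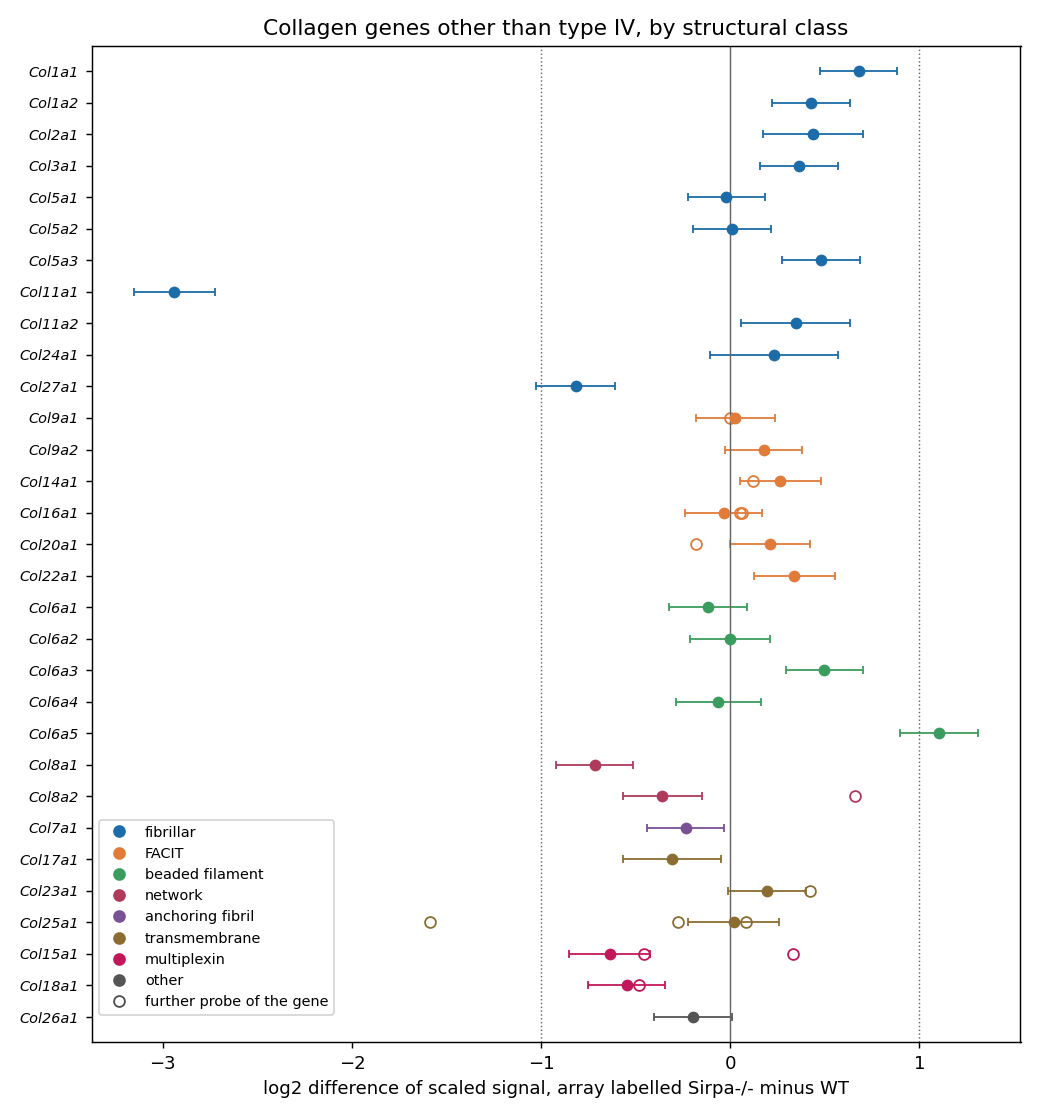
Log2 difference of scaled signal (Sirpa-/- label minus WT) for the 31 measured collagen genes, coloured by structural class. Filled points are the probe used for the gene, with bars of 1 software error, and open points are further probes; dotted lines mark 2-fold. Col11a1 lies alone at -2.94, Col6a5 at 1.105, and the 2 multiplexins and 2 network collagens lie below 0 on the probe used.

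Fibrillar collagens held both type I chains, which were higher on the array labelled Sirpa-/-, and the lowest value of all members. Of 11 genes measured 8 lay above 0, beside 50.3% of all measured genes, but only Col1a1, Col1a2 and Col5a3 of these passed 2 software errors. The class had a median of 0.35, and across 7 alternative ways of processing the median lay between 0.28 and 0.36 (over 5 genes where a signal of 100 was required). Col1a1 and Col1a2 encode the chains of type I collagen, the main protein of scar and bone. Col1a1 had a processed signal of 380.5 for WT and 584 on the array labelled Sirpa-/-, which is 1.60-fold higher after scaling (log2 0.68, software error 0.20). Its partner Col1a2 had 12172 and 15677, a log2 difference of 0.43 (error 0.20). Both chains of type I collagen were thus higher on the same array, by more than 2 software errors each. Col3a1, whose type III homotrimers mix with type I in soft tissue fibrils, had signals of 259 and 319.5, a difference of 0.36 (error 0.20). Col3a1 was under 2 software errors, and its direction was that of the type I chains.

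The promoters of Col1a2 and Col3a1 are printed because these chains were higher together. Col1a1 is not among the promoters at hand. The windows run from 250 bases before to 50 after the gene start of RefSeq on GRCm38.p6, read 5′ to 3′ on the gene's strand, and capitals mark the letters CCAAT, those of the GC box, GGGCGG, or those of the TATA box, TATAAA, read on either strand. Col1a2 lies at chr6:4505368-4505667 on the plus strand and Col3a1 at chr1:45311288-45311587 on the plus strand.
Col1a2: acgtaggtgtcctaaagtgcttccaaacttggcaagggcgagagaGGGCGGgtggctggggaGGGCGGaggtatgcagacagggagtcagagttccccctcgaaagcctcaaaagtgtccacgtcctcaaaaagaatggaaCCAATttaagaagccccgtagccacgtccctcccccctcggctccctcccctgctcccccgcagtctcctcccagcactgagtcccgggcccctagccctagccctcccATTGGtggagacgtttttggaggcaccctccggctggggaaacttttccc
Col3a1: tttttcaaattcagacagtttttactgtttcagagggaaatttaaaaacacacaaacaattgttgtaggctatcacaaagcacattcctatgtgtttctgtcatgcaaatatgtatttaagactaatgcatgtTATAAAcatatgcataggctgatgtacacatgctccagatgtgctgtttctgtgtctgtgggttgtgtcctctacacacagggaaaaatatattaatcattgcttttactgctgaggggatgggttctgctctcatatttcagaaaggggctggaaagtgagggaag
In the Col1a2 window GGGCGG starts 205 and 188 bases before the gene start, CCAAT 109 bases before it, and a reverse CCAAT at the start itself. Col3a1 holds none of these except TATAAA 117 bases before its start, and has 37.7% G and C against 61.0% in Col1a2. The Col1a2 and Col3a1 windows thus share none of the 3 motifs, and a link between motifs and signals was not tested.

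Chains of the minor fibrillar types V and XI, which sit within fibrils, differed among themselves. Col5a1 had signals of 1445 and 1363 and Col5a2 of 177 and 170.5, with differences of -0.02 and 0.01. Col5a3 had 65.3 and 87.3, a difference of 0.48 (error 0.21). The chains of type V that form its common trimer were thus level on the 2 arrays, and Col5a3 was higher at a dim signal. Col3a1 and Col5a2 are direct neighbours on chromosome 1 and lay at 0.36 and 0.01 (error 0.20 each), or 0.32 and 0.14 with normexp. Neither passed 2 software errors.

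Col11a1 had the largest difference of any measured collagen. It encodes a type XI chain, best known from cartilage fibrils and also made by activated fibroblasts. Its probe gave 221 for WT and 27.6 on the array labelled Sirpa-/-, 7.66-fold lower after scaling (log2 -2.94, error 0.21). The raw pixel medians were 269 and 55.5 over local backgrounds of 17.0 and 16.0, and 100 spots around it on the slide had a median difference of 0.00. The gene had this 1 probe only, so no further probe bears on the value, and with normexp the difference was -1.56. The other type XI chains, Col11a2 (17.4 and 21.1, difference 0.35, error 0.29) and Col2a1 (19.6 and 25.4, difference 0.44, error 0.26), were dim and lay on the other side of 0. Col27a1, a fibrillar collagen of cartilage, had 104 and 56.8, a difference of -0.82 (error 0.21), which was -0.24 with normexp. Col24a1 was near background at 9.36 and 10.5.

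The start of Col11a1 is shown because that gene had the largest difference, and the start of Col6a5 because it was the collagen past 2-fold on the other side. Col11a1 lies at chr3:114030290-114030589 on the plus strand and Col6a5 at chr9:105960594-105960893 on the minus strand, with the same capitals as above.
Col11a1: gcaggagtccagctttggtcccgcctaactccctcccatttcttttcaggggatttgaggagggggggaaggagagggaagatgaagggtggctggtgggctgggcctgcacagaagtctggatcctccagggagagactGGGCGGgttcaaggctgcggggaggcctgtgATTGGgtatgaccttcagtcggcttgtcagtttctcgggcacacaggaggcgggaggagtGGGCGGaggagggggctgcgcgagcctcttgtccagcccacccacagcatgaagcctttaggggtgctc
Col6a5: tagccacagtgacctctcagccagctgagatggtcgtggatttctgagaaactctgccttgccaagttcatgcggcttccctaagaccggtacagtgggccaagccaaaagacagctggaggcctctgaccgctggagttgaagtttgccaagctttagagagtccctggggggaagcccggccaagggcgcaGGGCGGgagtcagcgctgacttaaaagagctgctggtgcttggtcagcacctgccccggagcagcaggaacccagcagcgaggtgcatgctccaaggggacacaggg
Both windows hold GGGCGG, 110 and 19 bases before the start in Col11a1 and 57 bases before it in Col6a5, and Col11a1 also holds a reverse CCAAT 79 bases before its start. The 2 windows thus share a GC box by these letters, and a link between it and the signals was not tested.

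Type VI collagen forms beaded microfilaments around cells, built from an α1 and an α2 chain with α3, α4, α5 or α6. Col6a1 had signals of 227 and 200.1 and Col6a2 of 51.3 and 49.0, with differences of -0.12 and 0.00. Col6a3 had 3783 and 5119, 1.41-fold higher under the Sirpa-/- label (log2 0.50, error 0.20). The chains that every type VI trimer needs were level, while Col6a3 was higher by more than 2 software errors. Col6a5 had 84.2 and 174, 2.15-fold higher (log2 1.105, error 0.21). With normexp its difference was 0.85, short of 2-fold, and its further probe was not well above background on either array. Col6a4 gave 28.6 and 26.3, a difference of -0.06. Col6a6 was above background only on the array labelled Sirpa-/-, on 1 of its 2 probes, where it was at least 1.24-fold higher by the bound that background sets. That probe was very dim, at 3.66 and 7.96 (error 0.66). The other probe of Col6a6, not well above background on either array, went the other way at 7.55 and 4.56. Col6a4, Col6a5 and Col6a6 stand side by side on chromosome 9, and Col6a1 and Col6a2 side by side on chromosome 10, so the measured chains of the chromosome 9 cluster spanned -0.06 to 1.105.

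Multiplexins are basement membrane collagens with an interrupted helix, and their C-terminal fragments include endostatin. Both were lower on the array labelled Sirpa-/-. Col18a1 had signals of 44081 and 28897 on one probe, a difference of -0.55 (error 0.20), and 22662 and 15551 on the other, a difference of -0.48 (error 0.20). Its 2 probes thus gave the same direction and nearly the same size at bright signals, and the difference ranged only from -0.58 to -0.51 over the 7 alternatives. Col15a1 had 61.9 and 38.2 on the probe used, a difference of -0.64 (error 0.21), and 49.9 and 34.9 on a further probe, a difference of -0.46. The remaining probe of Col15a1, the dimmest, went the other way at 15.2 and 18.4 (0.33). The mean of the 3 Col15a1 probes was -0.25, and with normexp the value was -0.15, so its size rests on the choice of probe and background. Type XVIII was the only multiplexin with a difference that held on all its probes.

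The RefSeq starts of the multiplexins are printed because both chains were lower on the same array. Col18a1 has 2 starts, an upstream one at chr10:77166481-77166780 and a downstream one at chr10:77113656-77113955, both on the minus strand, and Col15a1 lies at chr4:47207762-47208061 on the plus strand.
Col18a1 upstream: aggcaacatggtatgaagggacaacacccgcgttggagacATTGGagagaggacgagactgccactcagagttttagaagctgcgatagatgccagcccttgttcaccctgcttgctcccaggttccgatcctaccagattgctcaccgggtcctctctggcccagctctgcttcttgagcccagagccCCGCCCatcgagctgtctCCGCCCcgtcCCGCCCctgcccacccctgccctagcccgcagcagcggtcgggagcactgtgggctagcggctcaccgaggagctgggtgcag
Col18a1 downstream: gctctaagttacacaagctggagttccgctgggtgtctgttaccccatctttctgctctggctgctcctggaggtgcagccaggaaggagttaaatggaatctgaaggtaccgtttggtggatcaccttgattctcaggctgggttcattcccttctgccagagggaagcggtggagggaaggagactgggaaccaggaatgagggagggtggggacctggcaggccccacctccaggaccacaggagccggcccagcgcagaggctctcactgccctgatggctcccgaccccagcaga
Col15a1: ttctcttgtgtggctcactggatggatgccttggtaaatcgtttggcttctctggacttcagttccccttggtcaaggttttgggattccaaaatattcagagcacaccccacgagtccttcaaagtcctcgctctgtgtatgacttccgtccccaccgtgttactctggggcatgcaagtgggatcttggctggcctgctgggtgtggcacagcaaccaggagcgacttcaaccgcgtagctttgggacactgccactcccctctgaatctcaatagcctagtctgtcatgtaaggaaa
The upstream Col18a1 window holds GGGCGG 3 times on the other strand, 61, 43 and 33 bases before the start, and a reverse CCAAT 210 bases before it. The downstream window and the Col15a1 window hold none of the 3 motifs. Which of the 2 starts the RNA came from cannot be read from these probes. Over all 33 windows of 30 collagen genes GGGCGG was found in 19 (57.6%), against 35.7% of 32851 promoter windows of the same length, CCAAT in 10 (30.3% against 37.4%) and TATAAA in 5 (15.2% against 13.6%). Matches in the 7 printed windows did not overlap each other.

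The network-forming type VIII collagens, short-chain collagens of vascular walls, gave an uneven picture. Col8a1 had signals of 2122 and 1238, 1.64-fold lower under the Sirpa-/- label (log2 -0.72, error 0.20), and all 7 alternatives lay between -0.73 and -0.72. Its only probe was bright and its value did not depend on the processing tried. Col8a2, the other chain, had 72.4 and 54.1 on the probe used (-0.36, error 0.21) but 37.1 and 56.2 on a further probe (0.66, error 0.22). These probes disagree by 1.02 (log2), more than their errors, so no direction is given for Col8a2. Col10a1, a type X chain of hypertrophic cartilage, was not well above background on either array.

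Fibril-associated collagens, which have interrupted helices and bind the surface of fibrils, showed small differences. All 6 measured genes were within 1.5-fold, from -0.03 to 0.34, with a median of 0.19. Col16a1, found in association with several matrix networks, had 565 and 529 on the probe used and differences of -0.03, 0.06 and 0.05 on its 3 probes. Col14a1, an undulin-type chain that binds decorin-coated fibrils, had 51.6 and 59.4 (0.26, error 0.21). The largest in the class was Col22a1, a chain of tissue junctions, with 46.0 and 55.7 (0.34, error 0.21). Col9a1 and Col9a2, chains of the cartilage collagen type IX, lay at 0.03 and 0.18, and Col20a1 gave 0.21 and -0.18 on its 2 probes. Col9a3 and Col19a1 were not well above background on either array.

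Of the remaining chains, Col7a1, the anchoring fibril collagen of stratified epithelia, had 179 and 146, a difference of -0.24 (error 0.20). Col26a1 had 364 and 305, a difference of -0.20 (error 0.20). Among transmembrane collagens, which are shed from the cell surface, Col23a1 lay above 0 on both measured probes. The differences of 0.20 and 0.42 (error 0.21 each) were under 2 software errors. Col17a1, the hemidesmosomal collagen, was dim at 19.6 and 15.2, and its difference of -0.31 became 0.14 with normexp. Col25a1, first described in amyloid plaques, was measured by 4 probes. On 3 of them the difference lay between -0.28 and 0.08, and on the remaining one, at signals of 28.6 and 9.13, it was -1.59 (error 0.30). Col13a1 and Col28a1 were not well above background on either array.

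**Figure D2:**
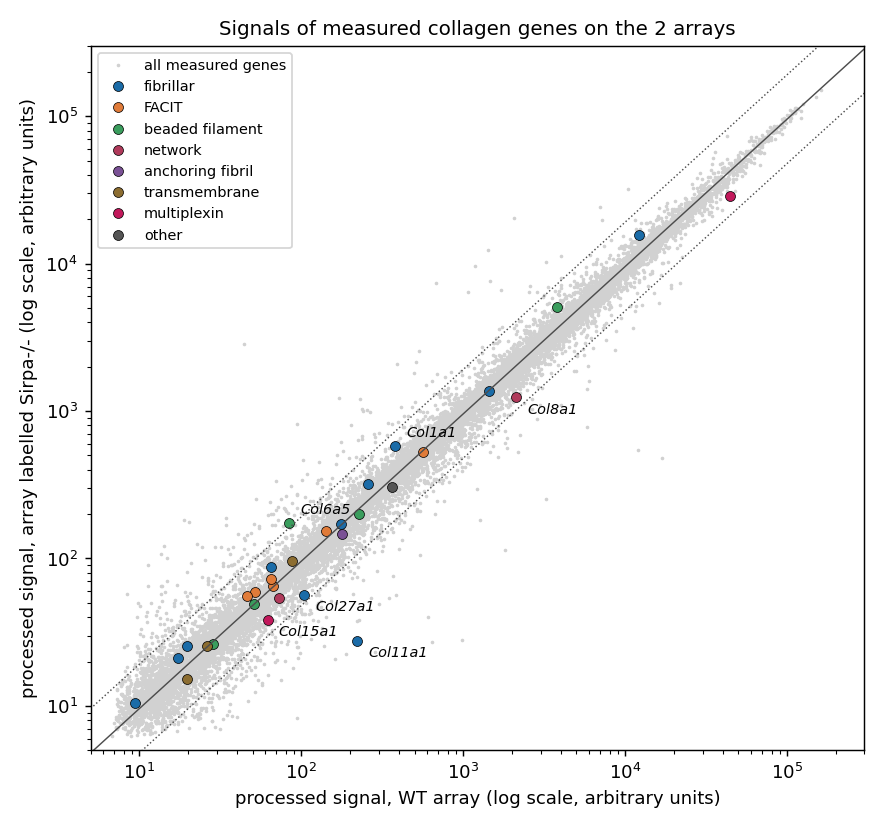
Processed signal on the WT array (x) and on the array labelled Sirpa-/- (y), both on log axes in arbitrary units. Grey points are the 18239 measured genes and coloured points the 31 collagens, by class; the solid line is equal scaled signal and the dotted lines are 2-fold. Col11a1 and Col6a5 lie outside the dotted lines, and the type XVIII point at the top right lies below the solid line.

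Of the 9 collagen genes with more than 1 measured probe, the highest and lowest probes differed by a median of 0.23 (log2), close to the 0.20 found over 4561 genes with several probes. In 3 of the 9 genes, Col8a2, Col15a1 and Col25a1, the probes differed by more than 0.5. Beside these, the 6 type IV chains, measured the same way, lay between -0.41 (Col4a6) and 0.30 (Col4a3), with a median of 0.04 and 0 genes past 1.5-fold. The type IV values are given as a description, since no test of the difference between the groups of chains was made.

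Collagen chains are hydroxylated and folded in the endoplasmic reticulum before export. The genes of this machinery lay close together, with all 25 measured genes within 1.5-fold and a median of -0.05. Serpinh1 (HSP47, the collagen-specific chaperone) had signals of 32985 and 22240.4, a difference of -0.51 (error 0.20). Ppib, an isomerase that helps collagen fold, and P3h4, a partner of a lysyl hydroxylase, gave -0.19 each. P4ha1, a catalytic subunit of prolyl 4-hydroxylase, gave -0.41 and -0.36 on its 2 probes. The proline hydroxylase P3h2 lay at 0.28 and Tmem38b, an ion channel of the endoplasmic reticulum, at 0.48. The procollagen chaperone was thus lower on the array where the type I chains were higher.

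Of 13 measured genes that process and cross-link collagen outside the cell, 10 lay below 0, beside 49.7% of all measured genes, and 2 were at least 2-fold lower. Their median was -0.29. With normexp 6 of the 13 lay above 0 and the median was -0.11. Over all measured genes normexp put 65.4% above 0, with a median of 0.07. Loxl2, a lysyl oxidase that cross-links type IV and fibrillar collagens, had 6336 and 2684, 2.26-fold lower under the Sirpa-/- label (log2 -1.18, error 0.20). Its further probes gave -1.15 and -0.08, so 2 of 3 probes showed this size. Pcolce2, an enhancer of procollagen processing, had 76.8 and 33.0, a difference of -1.16 that was -0.33 with normexp. Lox went the other way at 53.4 and 79.9 (0.64), with 0.33 on its further probe. Loxl1 gave -0.56 but 0.18 on its further probe, and transglutaminase 2 (Tgm2) gave -0.52 and -0.38. The dim Loxl4, at 24.1 and 16.7, gave -0.47, which turned to 0.09 with normexp.

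Collagen receptors had a median of -0.09 over 13 genes. Itga11, the integrin chain that binds fibrillar collagen on fibroblasts, had signals of 142 and 40.2, 3.39-fold lower under the Sirpa-/- label (log2 -1.76, error 0.21). It had 1 probe, and its difference was -0.88 with normexp. The platelet collagen receptor Gp6 was near background at 9.41 and 12.3, with a difference of 0.45 (error 0.38) that was 0.22 with normexp. The scavenger receptor Cd36 gave -0.58, Cd93 -0.42 and Antxr2, which binds type IV collagen and laminin, -0.28. The collagen-binding kinases Ddr1 (-0.02) and Ddr2 (-0.08), picked after their values were seen, were close to 0. Mrc2, a receptor that takes up cleaved collagen, gave -0.70 on one probe and 0.24 on the other. Itga11 was therefore the 1 receptor past 2-fold.

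Proteases and inhibitors of collagen breakdown had a median of 0.02 over 20 genes. Mmp8, the neutrophil collagenase, was dim at 17.0 and 34.2, a difference of 1.07 that was 0.54 with normexp. The inhibitor Timp4 had 125 and 207, a difference of 0.79 (error 0.21). The stromelysin Mmp3 gave 0.36. The stromelysin Mmp10 was dim at 24.2 and 17.7, and its difference of -0.39 (error 0.25) turned to 0.11 with normexp. The proteases cathepsin K (Ctsk) and Fap gave -0.37 and 0.35. In this list 1 gene was past 2-fold and 18 of 20 lay within 1.5-fold.

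The next list held genes of proteoglycans that bind collagen fibrils and of other fibrillar matrix partners. Of 18 measured genes 12 lay below 0, beside 49.7% of all measured genes. Their median was -0.18, and with normexp -0.08 against 0.07 over all measured genes. Osteoglycin (Ogn), a small leucine-rich proteoglycan, had 1393 and 621, 2.15-fold lower under the Sirpa-/- label (log2 -1.10, error 0.20), or -0.82 with normexp. Decorin (Dcn), which coats type I fibrils, had 594.5 and 330.5, a difference of -0.78 (error 0.20). Periostin (Postn) gave -0.53, and the small proteoglycans Omd and Fmod -0.41 and -0.40, while Comp, which binds several fibrillar collagens, gave 0.50. Biglycan (Bgn, 0.32) and asporin (Aspn, 0.18), picked after their values were seen, lay above 0, so the fibril-binding proteoglycans lay on both sides of it.

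The list of TGF-beta signalling genes and other profibrotic regulators, among them PDGF genes, had a median of -0.03 over 26 genes. With normexp it was 0.05, against 0.07 over all measured genes. The ligand Tgfb2 had 419.5 and 237, a difference of -0.76 (error 0.20) and of -0.997 on its further probe, and the ligand Tgfb3 gave -0.40. The co-receptor Tgfbr3 gave 0.54, the matricellular protein Ccn1 -0.50, and the transcription factors Snai1 and Twist1 0.45 and 0.39. Tgfb1 (-0.06) and Ccn2 (-0.07), picked after their values were seen, were close to 0. No member of this list reached 2-fold on the probe used.

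**Figure D3:**
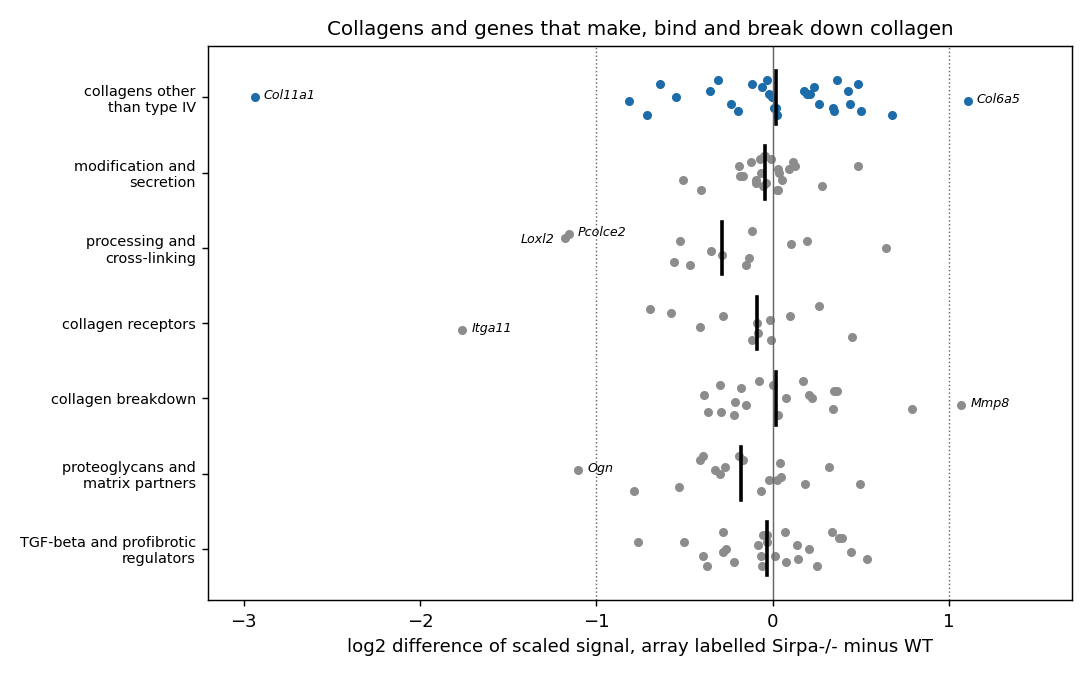
Log2 difference of scaled signal (Sirpa-/- label minus WT) for each measured gene of the collagens and of the 6 related lists described above. Black bars are list medians and dotted lines mark 2-fold. Genes past 2-fold are named. The medians lie between -0.29 for processing and cross-linking and 0.02.

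In bulk RNA, fewer cells of a type and less RNA per cell cannot be told apart. Of 8 fibroblast markers 7 were measured, 3 of them above 0, with a median of -0.02. Their summed scaled signal (in units of the 75th percentile) was 33.9 for WT and 26.2 on the second array, and Dpt was not well above background on either array. Pi16 made up most of that sum, and without it the sum was 7.51 and 8.30, so its direction rested on 1 gene. All 9 mesangial and smooth muscle markers were measured, with a median of 0.01 and summed signals of 105.3 and 89.2. Other marker lists differed more between the arrays. All 5 B cell markers lay above 0 with a median of 1.82, and all 4 erythroid markers had a median of 1.56. The 4 measured markers of adipocytes and the kidney capsule had a median of 0.66 with summed signals of 29.3 and 38.9. Fabp4 made up nearly all of that sum, which was 0.035 and 0.053 without it. Adipoq, Plin1 and Msln were dim, and with normexp lay at 0.44, 0.17 and 0.34. The median was 0.97 over 5 markers of the loop and distal tubule (summed signals 1.89 and 3.32) and 0.77 over 4 T cell markers (0.387 and 0.588). Below 0 were the medians of 4 proximal tubule markers, at -0.38 (5.39 and 3.63), and of 3 measured macrophage markers, at -0.31 (3.53 and 2.69). Sums of this kind are weighted to the probes with the brightest signals. The sums given here other than that of the fibroblast markers kept their direction without their largest gene. The part of these cell types in the collagen differences was not tested.

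**Figure D4:**
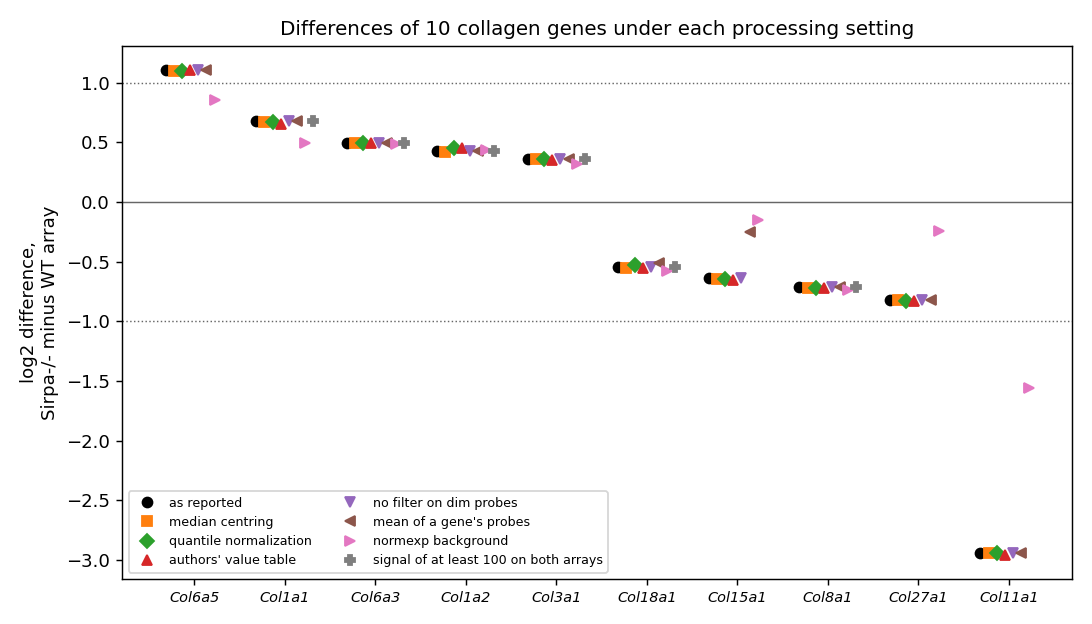
Log2 difference (Sirpa-/- label minus WT) of 10 collagen genes under the processing reported and 7 alternatives; dotted lines mark 2-fold, and a missing symbol means that the gene did not pass that setting's filter. The 10 genes were picked by hand and hold none of the 7 collagens whose sign turned in a setting. That all 10 keep their side of 0 is therefore no measure of stability over the collagens. The value furthest from the reported one is that of Col11a1 with normexp. Col15a1 and Col27a1 also moved with normexp, and Col15a1 with the mean of its probes.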

How the data were processed

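The authors deposited, per the file headers, Agilent Feature Extraction output with the processed intensity of each spot (background-subtracted, not normalized between arrays), its error estimate, median pixel and local background intensity, and quality flags, recorded as other values. The headers name version 11.0.1.1 of the software and mm9 as the design build, while the submitters' processing notes name version 9.1. Their deposited log2 value table served as an alternative, and no source used here tells how it was made.

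The log2 of the processed intensity was averaged over spots not marked as outliers and the 75th percentile over gene probes (signals of 1157.5 and 1108.7) was subtracted. Probes were named through RefSeq accessions in the GRCm38.p6 gene table, from which only names and gene order were taken. A gene was represented by its measured probe with the highest mean signal. For a bound, the array with the weaker signal was given that signal or the faintest probe well above background (6.72 for WT, 6.21 for Sirpa-/-), whichever was larger. Normexp used limma 3.58.1 with an offset of 50 on median signals. Scripts ran in Python 3.11.15 and were tested on simulated data. The members, classes and lists were chosen with earlier results of these data known. The rule named every collagen on the array and the 6 genes of each related list with the largest absolute differences, and any other gene named was picked after its values were seen. Replicates, and so p-values, are lacking.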

Additional observations from a re-analysis of the deposited data

How the results depend on the processing

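Each result was recomputed with median centring, quantile normalization, normexp, the authors' table, no filter on dim probes, a minimum signal of 100, and the mean of a gene's probes. The collagen median of 0.02 was 0.15 with normexp, where 0 collagens were at least 2-fold higher and all genes had a median of 0.07. Without a filter 2 collagens were at least 2-fold lower, the added one being Col13a1, which was not above background. With a minimum signal of 100, 13 collagens were left, 0 of them 2-fold higher and 0 lower. Of those 13, Col1a1 and Col8a1 were past 1.5-fold, 15.4% beside 5.66% of all genes with that signal. At 1.5-fold with no minimum signal, 2 of the 31 collagens were higher and 4 lower. Of 199 single values, 24 moved by more than 0.07, the spread of repeated spots, 18 of them with normexp and 6 with the mean of probes. Many of the 199 had no room to move. Median centring shifted all genes alike, the filters left the scaled values as they were, and 22 genes had a single measured probe to average. The count is therefore no measure of stability. For repeated probes with a signal under 100 the spread was 0.27. Col11a1 and Col6a5, the genes past 2-fold, kept their sign in every setting that measured them, while 7 smaller differences turned: Col17a1 (0.14), Col5a1 (0.15), Col6a2 (0.15) and Col6a4 (0.12) with normexp, and Col8a2 (0.15), Col25a1 (-0.44) and Col16a1 (0.03) with the mean of probes. Over all genes, 285 were 2-fold higher and 304 lower as reported, 113 and 79 with normexp, 670 and 613 without a filter, and 84 and 104 with a minimum signal of 100. Marker sums without their largest gene were added after seeing the data. No paired analysis was possible because each group had 1 array, and for the same reason no slide block was fitted. Array number, and signals under 100 for 18 of 31 collagens, limit the precision.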

Other observations

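Other proteins that carry a collagen domain without being collagens were looked at with a list chosen after the data were seen. Of 31 such genes 29 were measured, 8 of them above 0, beside 50.3% of all measured genes. Their median log2 difference was -0.10. This lean depended on the background model. With normexp several genes below 0 turned above it, among them C1qtnf6 (0.23), Fcnb (0.22) and Colec10 (0.16). None turned the other way, and normexp put 65.4% of all measured genes above 0. The serum lectin Mbl2 (14.4 for WT and 32.7 under the Sirpa-/- label, 2.38-fold higher) and the adipocyte hormone adiponectin (Adipoq, 13.9 and 26.8, 2.01-fold) were past 2-fold at dim signals, and 0 genes were 2-fold lower. With normexp both were under 1.5-fold, at 0.56 and 0.44. Colq was also past 1.5-fold on the higher side, at 0.71, with 0.43 on its further probe. With normexp it was at 0.50. Over all measured genes 1.56% were at least 2-fold higher, 1.67% at least 2-fold lower and 5.27% at least 1.5-fold lower. Past 1.5-fold on the lower side were C1qtnf1 (16749.9 and 10165, -0.66, with -0.44 on its further probe), C1qtnf2 (-0.73), the ficolin Fcna (-0.77, dim, and -0.11 with normexp) and Ccbe1, a lymphangiogenic factor (-0.74, with 0.06 on its further probe). The complement starter chains C1qa (-0.10) and C1qb (-0.02) were level, and C1qc gave -0.46.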
